A study of Mus musculus with 4 samples.

Results

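Interferon-stimulated genes are the genes that cells switch on when an interferon binds its receptor. A fixed list of 38 of them was followed by gene name in 4 RNA-seq libraries of mouse intestine, and all 38 were found among the 55203 genes listed. They were sorted by their known main inducer into 31 type I response genes and 6 GTPases of the GBP and IRG families induced above all by interferon gamma. Irf1, a transcription factor gene induced by both kinds of interferon, was kept out of both classes. Many of the other genes also answer both kinds, so the classes differ in emphasis and are not exclusive.

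The libraries came from wild-type adult male C57BL/6NTac mice aged 8 to 12 weeks and kept specific-pathogen-free. RVC libraries 1 and 2 came from tissue treated with ribonucleoside vanadyl complex (RVC) at 4 mM, which inhibits RNases, and fresh-frozen libraries 1 and 2 from tissue labelled fresh frozen, although a single protocol text describing the RVC rinse accompanies all 4. Sample labels name the ileum, whereas the protocol and the design text name distal colon. No genetic change, infection or interferon treatment is given for any group. The labels do not state whether the libraries of a group came from separate animals, so p-values here measure only the spread between these libraries. The labels give a different batch to every library, and effects of batch and of group therefore cannot be told apart.

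Type I interferons (alpha and beta) and type III interferons (lambda) act through different receptors on the same transcription factor complex, which holds STAT2 and IRF9 and binds the interferon-stimulated response element (ISRE). Interferon gamma, the type II interferon, acts through a receptor of its own and the gamma-activated site (GAS). The products inhibit viral replication, sense foreign nucleic acid or, for the GTPases, attack the vacuoles in which intracellular microbes live. In the intestine, signals from the microbiota are known to keep a part of this program on without infection.

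RNA was depleted of ribosomal RNA and sequenced as 150-bp read pairs, and levels are FPKM, the fragments assigned to a transcript relative to its length and to all mapped fragments, summed over the transcripts of a gene. Fragment counts were not used here. Relative depth, read from the ratio of coverage to FPKM, ran from 72.6% to 100% of the deepest library, with 14247 to 14573 genes at 1 FPKM or more. Summed levels of 8 colon marker genes were 6808 to 10261 FPKM per library, and those of 8 ileum markers 5.37 to 7.56 FPKM, with 2 of the 8 at 0 in all 4 libraries, so the markers go against the ileum label. In such bulk tissue, fewer cells of a type and less RNA per cell cannot be told apart.

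The regulatory sequences through which these genes are known to be induced were read first. Promoter windows from RefSeq (GRCm38.p6, 250 bases before to 50 after a start) were matched by symbol for 29 of the 38 genes, as 34 windows. The ISRE core, searched as GAAA, any 2 bases and GAAA on either strand, stood in 19 of the 34 windows (55.9%), against 3.44% of all 32851 windows in the table. The GAS element, TTCNNNGAA, whose pattern is the same on both strands, stood in 7 of the 34 (20.6%), against 8.30% of all windows. Counted by gene, 12 of 22 matched type I response genes and 6 of 6 GTPases held the ISRE core, and 3 of 22 and 3 of 6 held the GAS element. A match is a description of these letters in the window and not evidence of a bound site.

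The promoters of 8 genes are printed to show both elements beside the genes whose levels are described next. Each line holds the 150 bases before the start, 5′ to 3′ on the strand of the gene, with ISRE cores and GAS elements in capitals, and overlapping cores run together. Ifit1, Isg15 and Oas1a stand for the type I response genes, Irgm1, Igtp, Irgm2 and Gbp2 for the GTPases, and Irf1 for itself.
Ifit1 (chr19:34640739-34640888, plus strand, GRCm38.p6): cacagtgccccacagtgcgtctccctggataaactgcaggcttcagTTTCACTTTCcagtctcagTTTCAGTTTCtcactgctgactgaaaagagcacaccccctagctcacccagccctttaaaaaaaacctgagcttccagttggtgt
Isg15 (chr4:156200819-156200968, minus strand, GRCm38.p6): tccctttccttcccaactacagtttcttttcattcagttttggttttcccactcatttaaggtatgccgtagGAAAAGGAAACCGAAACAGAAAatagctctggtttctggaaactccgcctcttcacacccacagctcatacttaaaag
Oas1a (chr5:120907526-120907675, minus strand, GRCm38.p6): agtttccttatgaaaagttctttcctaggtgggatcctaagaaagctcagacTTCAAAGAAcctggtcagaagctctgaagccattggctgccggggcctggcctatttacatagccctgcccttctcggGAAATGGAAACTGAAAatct
Irgm1 (chr11:48871421-48871570, minus strand, GRCm38.p6): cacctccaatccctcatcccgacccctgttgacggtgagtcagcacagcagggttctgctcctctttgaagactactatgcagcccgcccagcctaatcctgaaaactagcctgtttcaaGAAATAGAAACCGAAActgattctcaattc
Igtp (chr11:58199406-58199555, plus strand, GRCm38.p6): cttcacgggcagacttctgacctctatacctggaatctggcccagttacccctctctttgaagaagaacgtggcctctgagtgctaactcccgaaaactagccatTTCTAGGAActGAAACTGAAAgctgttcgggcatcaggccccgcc
Irgm2 (chr11:58214827-58214976, plus strand, GRCm38.p6): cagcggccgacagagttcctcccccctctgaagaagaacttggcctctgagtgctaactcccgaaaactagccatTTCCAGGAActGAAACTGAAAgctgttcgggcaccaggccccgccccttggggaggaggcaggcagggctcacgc
Gbp2 (chr3:142620513-142620662, plus strand, GRCm38.p6): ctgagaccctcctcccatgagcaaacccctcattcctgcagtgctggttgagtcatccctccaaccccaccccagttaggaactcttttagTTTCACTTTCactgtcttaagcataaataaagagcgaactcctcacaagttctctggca
Irf1 (chr11:53769864-53770013, plus strand, GRCm38.p6): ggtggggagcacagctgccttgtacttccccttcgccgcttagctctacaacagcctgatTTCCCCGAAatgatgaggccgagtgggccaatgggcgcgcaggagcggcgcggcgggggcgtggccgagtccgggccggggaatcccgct

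In this stretch Isg15 had 3 overlapping ISRE cores, and Ifit1, Oas1a and Irgm1 had 2 each. Igtp and Irgm2 each had a GAS element close to an ISRE core, and Irf1 had a GAS element and no ISRE core in its window. All 6 GTPases, the genes assigned to interferon gamma, held an ISRE core in their window, so that element was not confined to the type I response class.

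All 38 genes were listed above 0 in all 4 libraries. The mean level reached 10 FPKM in 19 of them, lay between 1 and 10 FPKM in 16 and was below 1 FPKM in 3, namely Oas2, Mx2 and Ifi44. Ifit1bl1 was the highest, with a mean of 138 FPKM, ahead of Irf1 with 62.8, Ifih1 with 33.6, Zbp1 with 31.6 and Irf7 with 31.0 FPKM. The latter 3 did not differ beyond their spread, since their values over the libraries ran from 31.0 to 34.9, from 25.9 to 41.0 and from 26.5 to 37.5 FPKM. Ifit1bl1 alone made up 23.1% to 31.8% of the summed FPKM of the tested type I response genes.

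**Figure D1:**
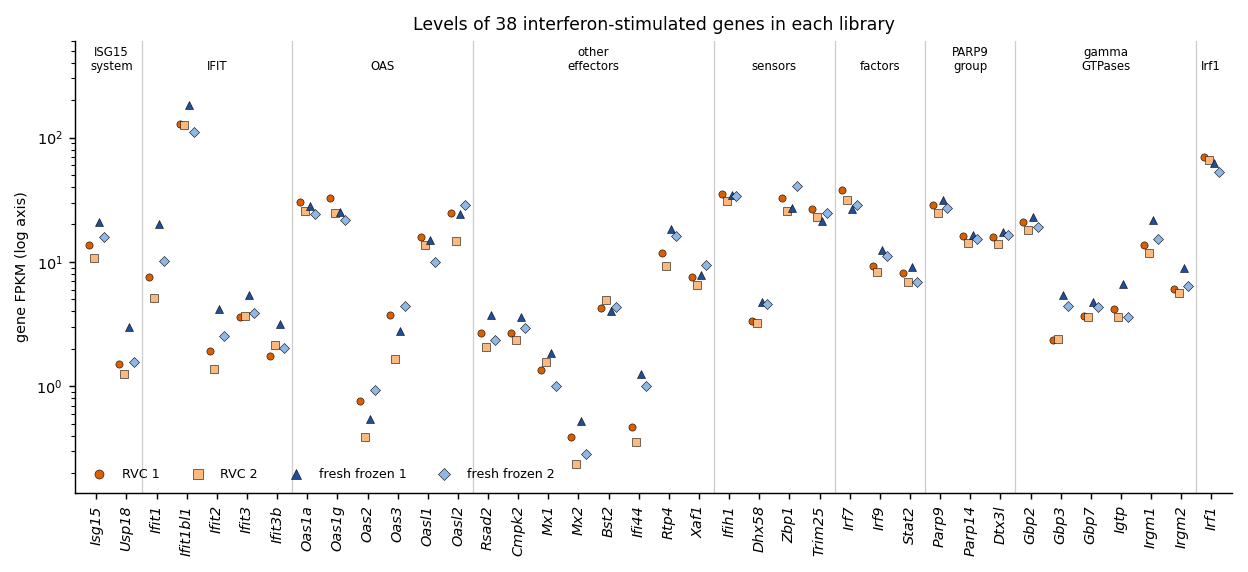
Level of each of the 38 genes in FPKM on a log axis, grouped by role, with 1 point per library and separate symbols for RVC 1, RVC 2, fresh frozen 1 and fresh frozen 2. Ifit1bl1 stands highest, between 111 and 183 FPKM, and fresh-frozen library 1 holds the highest point of all 5 IFIT genes and all 6 GTPases.

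For the comparison of RVC with fresh frozen, 35 of the 38 genes passed the filter on low values, 28 of them type I response genes. At an adjusted p below 0.05 in limma, 0 of the 35 were called, beside 0.0363% of all 13774 genes tested (5 genes). At an unadjusted p below 0.05, 8 were lower in RVC (8.92% of all genes) and 1 was higher (9.49% of all genes). The 2 RVC values lay below both fresh-frozen values for 15 of the 35 (26.6% of all genes) and above both for 2 (26.6% of all genes). A negative log2 difference, RVC minus fresh frozen, was found for 27 of the 35, against 48.8% of all genes, and the median difference was -0.25 against 0.01 over all genes. An exact permutation test of any 1 gene with 2 libraries against 2 cannot go below a two-sided p of 0.333.

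**Figure D2:**
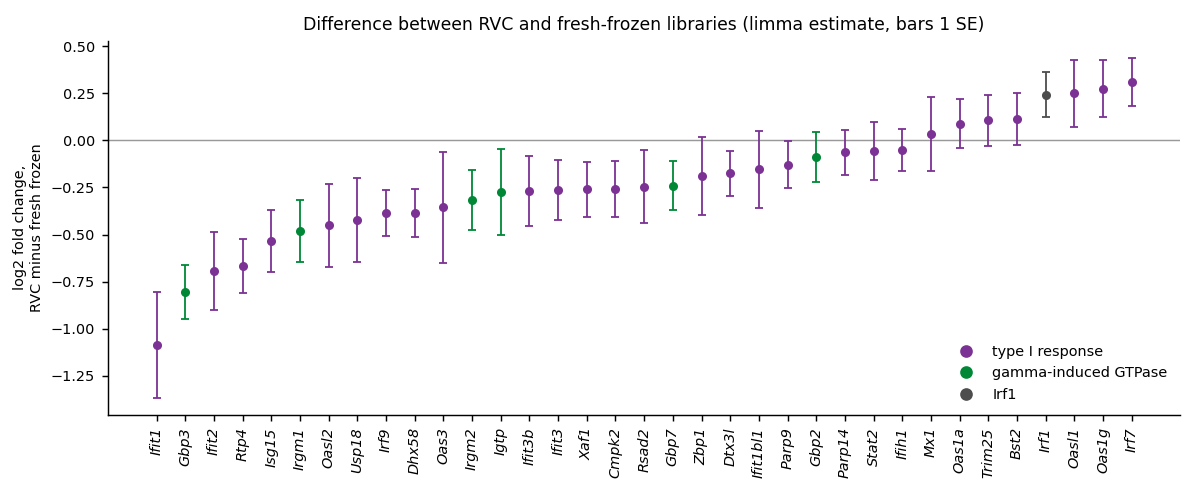
Difference between RVC and fresh frozen (log2 scale, scaled FPKM + 1) for each of the 35 tested genes, with bars of 1 standard error, the genes ordered by the difference and colours for type I response genes, GTPases and Irf1. Ifit1 lies lowest at -1.08 and Irf7 highest at 0.31, and 0 of the 35 genes have an adjusted p below 0.05.

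Among the type I response genes, Isg15 encodes a ubiquitin-like protein that is attached to other proteins, and Usp18 encodes the protease that removes it and also dampens the type I receptor. Isg15 (chr4:156283912-156285253, minus strand, GRCm39) was at 13.8 and 10.8 FPKM in RVC libraries 1 and 2 and at 21.0 and 15.8 FPKM in fresh-frozen libraries 1 and 2. Usp18 was at 1.52 and 1.25 FPKM in RVC and 3.03 and 1.56 FPKM in fresh frozen. Both had RVC values below both fresh-frozen values, though for Usp18 the gap between RVC library 1 and fresh-frozen library 2 was small. The log2 difference was -0.53 (SE 0.17) for Isg15 and -0.42 (SE 0.22) for Usp18, with adjusted p of 0.179 and 0.340, so neither passed the test.

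The IFIT proteins bind viral RNA and block its translation, and 5 of their genes lie together on chromosome 19. Ifit1 (chr19:34618271-34627409, plus strand, GRCm39), whose promoter held the pair of ISRE cores shown above, was at 7.50 and 5.17 FPKM in RVC and at 20.1 and 10.3 FPKM in fresh frozen. The groups did not overlap, and fresh-frozen library 1 held about as much again as fresh-frozen library 2. The log2 difference was -1.08 (SE 0.28), the largest decrease among the 35 genes, with an adjusted p of 0.143, and it was -0.65 without fresh-frozen library 1. Ifit2 was at 1.94 and 1.38 FPKM in RVC and 4.19 and 2.56 FPKM in fresh frozen, also without overlap, with a log2 difference of -0.69 (SE 0.21) and an adjusted p of 0.172.

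The most abundant IFIT gene did not show this separation. Ifit1bl1, a relative of Ifit1, was at 129 and 127 FPKM in RVC and at 183 and 111 FPKM in fresh frozen, so the fresh-frozen values lay on both sides of the RVC values. Its log2 difference was -0.15 (SE 0.20), with an adjusted p of 0.702. Ifit3 was at 3.61 and 3.69 FPKM in RVC and 5.45 and 3.86 FPKM in fresh frozen, and its close copy Ifit3b ranged from 1.75 to 3.17 FPKM. Of the 50-base windows of Ifit3, 46.9% also occurred in another gene, mostly Ifit3b, so the division of reads between these genes is uncertain. Fresh-frozen library 1 was the highest of the 4 libraries for all 5 IFIT genes.

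The 2′-5′ oligoadenylate synthetases make the messenger that activates RNase L on viral double-stranded RNA, and their relative Oasl1 restrains the translation of Irf7. For 5 of 5 tested genes of the family the RVC and fresh-frozen values overlapped, against 46.8% of all genes, and the median log2 difference was 0.09. Oas1a was at 30.3 and 25.5 FPKM in RVC and 28.3 and 24.2 FPKM in fresh frozen. Oas1g was at 32.5 and 24.7 FPKM in RVC and 25.2 and 21.6 FPKM in fresh frozen, with a log2 difference of 0.27 (SE 0.15) and an adjusted p of 0.357. These 2 neighbours share most of their sequence, 56.8% of the windows of Oas1a and 57.6% of those of Oas1g, so their split is uncertain. In addition, 60.7% of the Oas1g signal was assigned to a transcript annotated for nonsense-mediated decay.

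Oasl2 was at 24.6 and 14.8 FPKM in RVC and 24.5 and 28.8 FPKM in fresh frozen, and Oasl1 at 15.9 and 13.6 FPKM in RVC and 14.9 and 10.03 FPKM in fresh frozen. For Oasl2, RVC library 2 stood apart as the low value and RVC library 1 equalled fresh-frozen library 1. Oas3 ranged from 1.65 to 4.43 FPKM, and Oas2 from 0.390 to 0.938 FPKM, below the filter. In Oas2, Oas3 and Oasl2 alike, RVC library 2 was lowest and fresh-frozen library 2 highest. The same order was found outside the family, in Zbp1 and Xaf1, and its share over all genes was not counted.

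Of the other effectors, Rtp4, which encodes a receptor transporter protein that inhibits some viruses, had the smallest p of the type I response genes. Rtp4 (chr16:23339041-23432972, plus strand, GRCm39) was at 11.8 and 9.23 FPKM in RVC and 18.5 and 16.0 FPKM in fresh frozen. The groups did not overlap, with a log2 difference of -0.67 (SE 0.14), and the adjusted p was 0.126. Its most abundant transcript, with 74.0% of the gene, was closer between the groups, at 9.41 and 7.37 FPKM in RVC and 11.3 and 13.0 FPKM in fresh frozen. A transcript with 12.4% of the gene was at 1.09 and 0.63 FPKM in RVC and 4.23 and 0.94 FPKM in fresh frozen. Xaf1, a promoter of apoptosis, was at 7.58 and 6.49 FPKM in RVC and 7.85 and 9.49 FPKM in fresh frozen, and Cmpk2, a mitochondrial nucleotide kinase, at 2.71 and 2.38 FPKM in RVC and 3.58 and 2.94 FPKM in fresh frozen. Both were without overlap, with adjusted p of 0.369 and 0.371.

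Bst2, or tetherin, which holds budding virus at the cell surface, was at 4.28 and 4.97 FPKM in RVC and 4.06 and 4.36 FPKM in fresh frozen, and its groups overlapped. Rsad2, or viperin, ranged from 2.06 to 3.74 FPKM. Mx1 and Mx2, antiviral GTPases whose genes are defective in most laboratory strains, ranged from 1.01 to 1.86 and from 0.235 to 0.527 FPKM. Only 5.4% of the Mx1 signal fell on transcripts annotated as protein coding, against 39.7% on those annotated for nonsense-mediated decay and 35.5% on those with a retained intron. Ifi44, singled out here after its values were seen, was at 0.472 and 0.354 FPKM in RVC and 1.25 and 1.00 FPKM in fresh frozen, without overlap, and was too low to be tested.

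Of the cytoplasmic sensors and their regulators, Ifih1 and Trim25 were the steadiest over the libraries. Ifih1, which encodes the double-stranded RNA sensor MDA5, was at 34.9 and 31.0 FPKM in RVC and 34.6 and 33.9 FPKM in fresh frozen, with a log2 difference of -0.05 (SE 0.11). Trim25, a ubiquitin ligase that acts on the sensor RIG-I, was at 26.8 and 22.9 FPKM in RVC and 21.3 and 24.8 FPKM in fresh frozen. Zbp1, a sensor of Z-form nucleic acid that triggers cell death, was at 32.5 and 25.9 FPKM in RVC and 27.0 and 41.0 FPKM in fresh frozen. The groups overlapped for all 3, and fresh-frozen library 2 stood above the other libraries for Zbp1. Dhx58, which encodes LGP2, a regulator of these sensors, had groups without overlap, at 3.38 and 3.22 FPKM in RVC and 4.73 and 4.55 FPKM in fresh frozen, with a log2 difference of -0.38 (SE 0.13) and an adjusted p of 0.198.

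The transcription factors of the pathway differed among themselves. Irf9, the DNA-binding part of the complex that reads the ISRE, was at 9.27 and 8.25 FPKM in RVC and 12.4 and 11.2 FPKM in fresh frozen, with a log2 difference of -0.39 (SE 0.12) and an adjusted p of 0.183. Irf7, which amplifies interferon alpha production, lay the other way, at 37.5 and 31.3 FPKM in RVC and 26.5 and 28.6 FPKM in fresh frozen, with a log2 difference of 0.31 (SE 0.13) and an adjusted p of 0.259. It was the only type I response gene with both RVC values above both fresh-frozen values. Stat2 was at 8.16 and 6.92 FPKM in RVC and 9.08 and 6.85 FPKM in fresh frozen, with overlap.

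Parp9 and Dtx3l encode partners in a ubiquitin ligase complex that supports interferon signalling, and Parp14 encodes a related ADP-ribosyltransferase. Parp9 was at 28.7 and 24.8 FPKM in RVC and 31.8 and 27.2 FPKM in fresh frozen. Dtx3l was at 15.9 and 13.8 FPKM in RVC and 17.5 and 16.5 FPKM in fresh frozen, and Parp14 at 16.3 and 14.1 FPKM in RVC and 16.6 and 15.4 FPKM in fresh frozen. The differences were small, with log2 values from -0.17 to -0.06, and only Dtx3l was without overlap. Parp9 and Dtx3l lie head to head on opposite strands and overlap over 682 bases, where reads cannot be told apart without strand information.

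The GTPases assemble on the vacuoles of intracellular bacteria and parasites, and the IRGM proteins among them regulate the others. All 6 had a negative log2 difference, from -0.81 to -0.09, against 48.8% of all genes with a negative one, and 4 of the 6 lay lower in RVC without overlap, against 26.6% of all genes. Gbp3 (chr3:142265787-142278970, plus strand, GRCm39) was at 2.35 and 2.39 FPKM in RVC and 5.45 and 4.42 FPKM in fresh frozen. It had the smallest p of the 35 genes, with a log2 difference of -0.81 (SE 0.14) and an adjusted p of 0.125. Irgm1 was at 13.8 and 11.8 FPKM in RVC and 21.7 and 15.4 FPKM in fresh frozen, without overlap, with a log2 difference of -0.48 (SE 0.17) and an adjusted p of 0.206.

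The most abundant GTPase gene, Gbp2, overlapped between the groups, with 20.9 and 18.1 FPKM in RVC and 22.9 and 19.0 FPKM in fresh frozen and a log2 difference of -0.09 (SE 0.13). Irgm2 was at 6.11 and 5.62 FPKM in RVC and 8.95 and 6.40 FPKM in fresh frozen, and Gbp7 ranged from 3.62 to 4.76 FPKM, both without overlap. Igtp, which encodes IRGM3, was at 4.18 and 3.60 FPKM in RVC and 6.65 and 3.58 FPKM in fresh frozen, where fresh-frozen library 2 matched RVC library 2. The annotated spans of Igtp and Irgm2 overlap on the same strand over 7974 bases, and Cufflinks divides reads between such transcripts by likelihood. Irf1, whose promoter held a GAS element, lay the other way from the GTPases, at 69.5 and 66.3 FPKM in RVC and 62.9 and 52.4 FPKM in fresh frozen, with a log2 difference of 0.24 (SE 0.12) and an adjusted p of 0.307.

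The split into transcripts added detail for the genes with the clearest separation. The 38 genes had 166 listed transcripts, and the most abundant one carried at least 90% of the level in 14 genes and under 50% in 6. Gbp3 was in the latter group: its most abundant transcript was at 0.72 and 0.67 FPKM in RVC and 2.79 and 2.29 FPKM in fresh frozen, whereas the next was at 1.51, 0.78, 0.90 and 1.14 FPKM in the same order. The latter overlapped between the groups. The third, with 21.8% of the gene, was at 0.119 and 0.722 FPKM in RVC and 1.55 and 0.793 FPKM in fresh frozen, without overlap, though RVC library 2 and fresh-frozen library 2 were close. The most abundant transcript of Gbp7 was at 1.87 and 1.86 FPKM in RVC and 3.11 and 2.96 FPKM in fresh frozen. Its other transcript, with 40.3% of the gene, lay the other way, at 1.84 and 1.76 FPKM in RVC and 1.66 and 1.35 FPKM in fresh frozen. The authors' program also gave lower and upper FPKM bounds for each transcript. For 3 of the 38 genes, Gbp3, Gbp7 and Ifit1, the lower bounds of the most abundant transcript in both fresh-frozen libraries lay above its upper bounds in both RVC libraries. This held for 6.61% of all genes tested, a similar share, so the count does not set the 38 genes apart. By the same measure, the bounds in fresh-frozen library 1 lay above those in fresh-frozen library 2 for 16 of the 38 genes (13.7% of all genes tested), a looser criterion since it sets 1 library against 1. The bounds cover the error of the estimate within a library and not the spread between libraries. For Ifit1, with a single listed transcript, these bounds were 6.84 to 8.17 and 4.61 to 5.73 FPKM in RVC and 19.0 to 21.3 and 9.56 to 11.0 FPKM in fresh frozen.

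**Figure D3:**
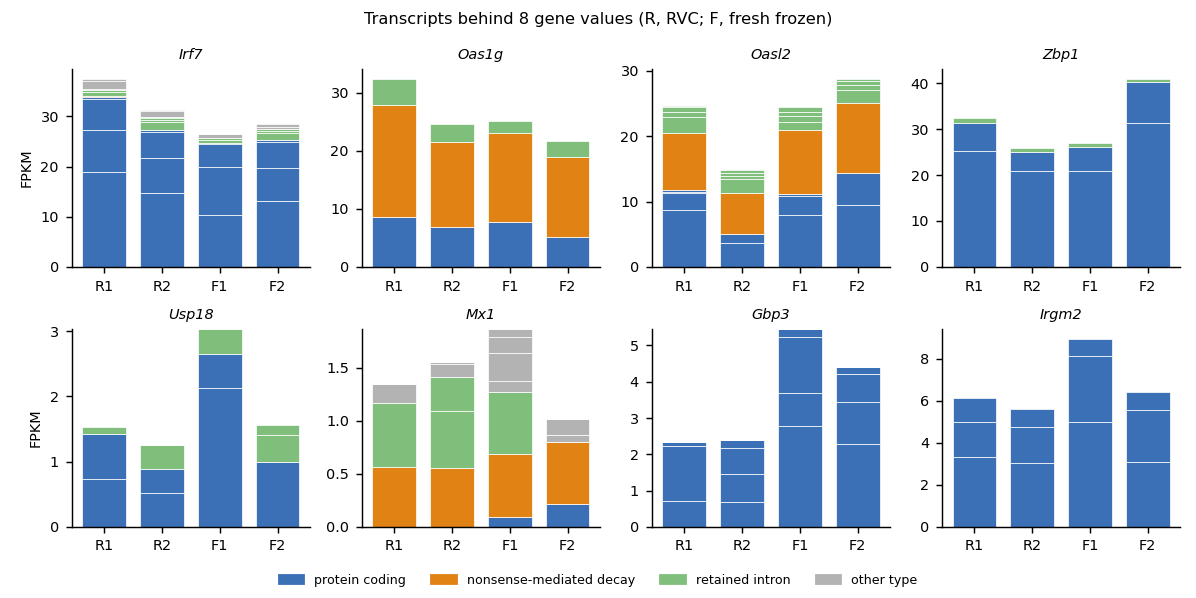
FPKM per library of 8 genes as stacked bars, 1 segment per transcript, with R for RVC and F for fresh frozen and colours for the annotated transcript type. Oas1g is mostly a transcript annotated for nonsense-mediated decay in every library, and the lowest Gbp3 segment, its most abundant transcript, is at 0.67 to 0.72 FPKM in RVC and 2.29 to 2.79 FPKM in fresh frozen.

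The classes were then set side by side within each library, over the 28 type I response genes and 6 GTPases tested. The median type I response gene was at 10.5 and 8.74 FPKM in RVC and 15.7 and 10.7 FPKM in fresh frozen, and the median GTPase at 5.15 and 4.62 FPKM in RVC and 7.80 and 5.41 FPKM in fresh frozen. Both medians were highest in fresh-frozen library 1 and lowest in RVC library 2. As a difference of medians of log2(FPKM + 1), the type I response genes exceeded the GTPases by 0.92 and 0.81 in RVC and by 0.94 and 0.89 in fresh frozen, a mean of 0.89 ± 0.05 (SD, n = 4). The gap therefore varied less between libraries than either median, which ranged over 3.28 to 4.06 for type I response genes and 2.47 to 3.12 for GTPases on that scale. Its size depended on the filter, which left out Oas2, Mx2 and Ifi44, all low type I response genes, and no GTPase. Over all listed genes the gap was smaller, as given below.

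**Figure D4:**
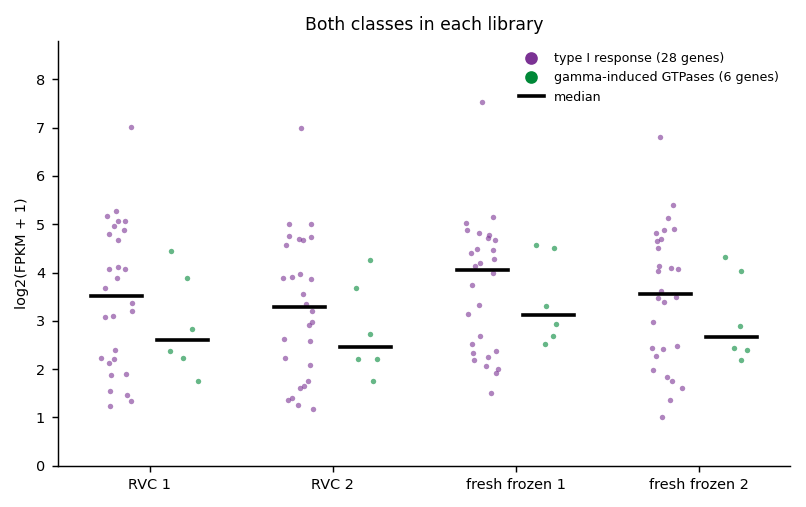
Levels of the tested type I response genes and of the GTPases in each library (log2 of FPKM + 1), with 1 point per gene and the median of each class. The type I median exceeds the GTPase median in every library, by 0.81 to 0.94.

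The medians of both classes moved between libraries of 1 group as well as between groups. The median log2 difference, RVC minus fresh frozen, was -0.22 for type I response genes and -0.30 for GTPases. In pairs of single libraries, it ran from -0.36 to -0.04 for type I response genes and from -0.64 to -0.11 for GTPases. Within the groups, RVC library 1 exceeded RVC library 2 by a median of 0.21 for type I response genes and 0.14 for GTPases, and fresh-frozen library 1 exceeded library 2 by 0.18 and 0.31. So the difference between replicates was of the size of the difference between groups. Without fresh-frozen library 2 the GTPase median was -0.57, and without fresh-frozen library 1 it was -0.16. Fresh-frozen library 1 was the highest for 22 of the 35 genes (26.4% of all genes), including all 6 GTPases, and RVC library 2 the lowest for 23 (18.6% of all genes).

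Markers of some other cell types moved with the groups, and those of others did not. All 7 smooth muscle markers were higher in both RVC libraries, with sums of 1095 to 1638 FPKM in RVC and 671 to 723 FPKM in fresh frozen, and so were all 6 endothelial markers, with sums of 22.0 to 22.5 and 13.3 to 14.9 FPKM. Macrophage markers were higher in RVC without overlap for 5 of 7 (26.6% of all genes), with sums of 57.0 to 58.7 and 36.1 to 44.4 FPKM, and plasma cell markers for 4 of 6, with sums of 626 to 685 and 296 to 436 FPKM. None of these markers was at 0 in all libraries. Absorptive epithelial markers summed to 6854 to 7484 FPKM in RVC and 5737 to 7002 FPKM in fresh frozen, and those of T and NK cells, a source of interferon gamma, to 4.15 to 6.33 and 4.80 to 5.04 FPKM. Of 11 T and NK cell markers, 2 lay higher and 1 lower in RVC without overlap. For plasmacytoid dendritic cells 2 of 7 lay higher and 0 lower. All of these genes without overlap were below 1 FPKM in every library and were not tested. The shares over all genes cover only genes that passed the filter, so they do not apply to these counts. The groups overlapped for all 5 goblet cell and all 4 B cell markers, against 46.8% of all genes tested, though the B cell markers were below 1 FPKM and untested. The part of tissue composition in the differences of the interferon-stimulated genes was not tested.

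Upstream of these genes, the interferons themselves were at or near 0. None of the 21 ligand genes reached 1 FPKM in any library, and the highest, Ifnk, which encodes interferon kappa of epithelia, was at 0.408 and 0.356 FPKM in RVC and 0.0637 and 0.557 FPKM in fresh frozen. Ifng was at 0.0353 and 0.0360 FPKM in RVC and listed at 0 in both fresh-frozen libraries.

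The receptor genes were detected in every library, with those for interferon gamma far above those for type I. Ifngr1, which encodes the ligand-binding chain for interferon gamma, was at 232 and 243 FPKM in RVC and 211 and 191 FPKM in fresh frozen, and Ifngr2, its partner, at 73.6 and 79.6 and 69.6 and 63.2 FPKM in the same order. Il10rb, the chain that the interferon lambda receptor shares with that for interleukin 10, was at 48.9 and 47.4 FPKM in RVC and 42.3 and 39.4 FPKM in fresh frozen. The chains of the type I receptor, added here for their role, were lower, with means of 10.1 FPKM for Ifnar1 and 2.79 FPKM for Ifnar2, and Ifnlr1, the specific chain for interferon lambda, had a mean of 3.96 FPKM. Of the 6 receptor genes, 5 had RVC values above both fresh-frozen values (26.6% of all genes), 0 passed at an adjusted or an unadjusted p below 0.05 in limma, and their median log2 difference was 0.23.

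The kinases bound to the receptors lay near equality. Jak1, the kinase shared by the receptors, was at 29.2 and 27.6 FPKM in RVC and 30.7 and 26.0 FPKM in fresh frozen, and Jak2, the kinase of the gamma receptor, at 22.5 and 23.1 and 26.3 and 22.9 FPKM in the same order. The groups overlapped for both, with log2 differences of 0.01 (SE 0.12) for Jak1 and -0.09 (SE 0.11) for Jak2.

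**Figure D5:**
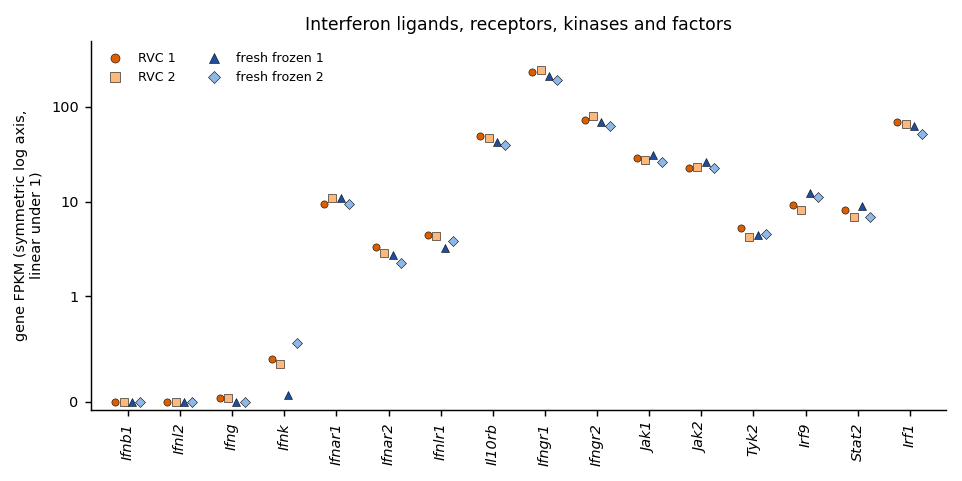
Level of 16 genes for ligands, receptors, kinases and transcription factors in FPKM per library, on a symmetric log axis that is linear below 1, with 1 symbol per library. The 4 ligands shown lie below 1 FPKM, and Ifngr1 is the highest of all, between 191 and 243 FPKM.

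Genes that induce interferon and genes that restrain it were described from the same fit. Among 9 tested inducers the median log2 difference was 0.19, and 5 lay higher and 2 lower in RVC without overlap, against 26.6% of all genes in each direction. Tbk1, the kinase that activates Irf3, was at 20.4 and 19.8 FPKM in RVC and 17.4 and 17.4 FPKM in fresh frozen, and Irf3 at 19.3 and 18.9 and 16.7 and 16.8 FPKM in the same order. Ticam1, the adaptor of Toll-like receptor 3, was at 12.2 and 12.3 FPKM in RVC and 9.99 and 8.77 FPKM in fresh frozen, with a log2 difference of 0.36 (SE 0.12) and an adjusted p of 0.191. Among 7 negative regulators the median was 0.21, and Irf2, a repressor of the ISRE, was at 58.4 and 58.7 FPKM in RVC and 54.3 and 53.1 FPKM in fresh frozen. Samhd1, a nucleotide hydrolase, had a mean of 53.8 FPKM and Ptpn2, a phosphatase of JAKs and STATs, a mean of 11.2 FPKM, both with overlapping groups.

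Further genes of each class were taken from lists drawn from textbook knowledge. Like the main list, they were chosen with earlier results of these data known, so they are not an independent check. Of 28 further type I response genes, 22 were tested, 11 with a negative and 11 with a positive log2 difference, and their median was 0.00. At an unadjusted p below 0.05, 2 of the 22 lay lower and 4 higher in RVC, against 8.92% and 9.49% of all genes, and 0 passed after adjustment in limma. Of these, Ifitm2, which blocks viral fusion, was the most abundant, at 55.4 and 70.9 FPKM in RVC and 48.8 and 44.9 FPKM in fresh frozen. Ifi27l2b and Ifi27 followed, with means of 45.3 and 43.2 FPKM and log2 differences of -0.26 (SE 0.12) and 0.06 (SE 0.11). The shift to lower values among the 28 tested type I response genes of the main list was thus absent from the median of these further genes, and the difference between the lists was not tested.

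Of 13 further GBP and IRG genes, 4 were tested and had a median log2 difference of -0.30. Gvin1, a very large interferon-induced GTPase, was at 3.75 and 4.11 FPKM in RVC and 5.90 and 7.12 FPKM in fresh frozen, without overlap, with a log2 difference of -0.60 (SE 0.14) and an adjusted p of 0.133. Ifi47 was at 1.53 and 1.47 FPKM in RVC and 2.77 and 1.64 FPKM in fresh frozen, and Iigp1 had a mean of 1.51 FPKM. The fourth, Tgtp2, lay the other way, at 1.63 and 1.29 FPKM in RVC and 1.37 and 1.08 FPKM in fresh frozen, with overlap and a log2 difference of 0.15 (SE 0.16). In the antigen presentation and chemokine genes induced by interferon gamma, 7 were tested and the median was 0.11. Of these, 3 had a negative and 4 a positive log2 difference, against 48.8% of all genes with a negative one. Psmb10 and Psmb8, subunits of the immunoproteasome, had means of 78.3 and 34.2 FPKM with overlapping groups. Tapbp, which loads peptides onto class I molecules, was at 82.2 and 78.3 FPKM in RVC and 59.7 and 61.3 FPKM in fresh frozen, with a log2 difference of 0.41 (SE 0.10) and an adjusted p of 0.142. Psmb9, named here after its values were seen, lay the other way, at 8.56 and 7.33 FPKM in RVC and 10.2 and 9.86 FPKM in fresh frozen. Its log2 difference was -0.30 (SE 0.13), with an adjusted p of 0.266.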

How the data were processed

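The members and all gene lists were chosen with earlier results of these data known. The authors aligned reads with TopHat2 2.1.1 to GRCm39 and estimated abundances with Cufflinks 2.2.1, per the submitters' processing notes. The annotation release and strand setting are not given in the sources used here. The deposited values are FPKM per transcript with lower and upper bounds, and coverage, a signal of reads per base, per the file headers. Count models were not applied to these FPKM.

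Gene FPKM was the sum over its transcripts. Libraries were scaled by median ratio, and log2(scaled FPKM + 1), which understates the change of low genes, was fitted in R 4.3.3 by limma 3.58.1 (linear models and trended eBayes, two-sided, without covariates). Genes had a mean of at least 1 scaled FPKM, a longest transcript of at least 300 nt and status OK in all libraries, which left 13774. P-values were adjusted by Benjamini-Hochberg over all of them at a threshold of 0.05. The fit was also run on simulated data with the same spread for every gene. That setting is simpler than these libraries, so it checks the working of the fit and not its error rates here.

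Values per library were given for up to 4 members with the highest mean FPKM in each role and the 6 members with the smallest p. The 3 most abundant genes of each pathway list were given per library or only by their mean, without the ligands that stayed below 1 FPKM. A gene of the pathway lists is not reported here. Class medians, counts without overlap and motif counts have no test. Transcript types came from GENCODE vM39 (GRCm39) and promoters from RefSeq (GRCm38.p6). Shared sequence was counted in windows of 50 bases. Alternatives changed the pseudocount, scaling, filters, transcript sum, block, trend and libraries.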

Additional observations from a re-analysis of the deposited data

How the results depend on the processing

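Under 15 alternatives, 0 of the 35 tested genes passed an adjusted p below 0.05, except Ifit1 with the replicate number as a block, at 0.021. The 5 genes called over the whole table became 0 without the filter on low values, without transcripts under 300 nt in the sum, without the mean-variance trend or with protein-coding transcripts only (added after seeing the data), and 2 with a mean of at least 5 FPKM or with the most abundant transcript. They became 89 with the replicate block and 8 to 56 when 1 library was left out. The replicate numbers are not stated to mark shared animals or batches. The difference between libraries 1 and 2 in RVC correlated with that in fresh frozen at -0.13 across 13774 genes. Whether libraries with the same number came from the same animal was not tested. The 17 of 35 genes without overlap became 10 of the 22 tested with a mean of at least 5 FPKM. They became 24 to 28 of 35 when 1 library was left out. Leaving out a library makes overlap less likely for any gene, since 1 value is then set against 2. Shares over all genes under these settings are not given, so these counts cannot be read as a change in the members. The type I median ran from -0.26 to -0.07 and the GTPase median from -0.57 to -0.16 when 1 library was left out. The gap between the classes was 1.00 with a pseudocount of 0.1 and 0.63 over all listed genes. Of 510 recomputed log2 differences of single genes, 493 kept their direction and side of the threshold and 16, in 11 genes, changed sign, each when 1 library was left out. Their values then ran from -0.50 to 0.18 for Ifit1bl1, -0.034 to 0.21 (-0.0045 without another library) for Oas1a, -0.77 to 0.063 for Oas3, -0.21 to 0.27 (-0.03 without another library) for Mx1, -0.14 to 0.034 for Ifih1, -0.50 to 0.12 for Zbp1, -0.019 to 0.23 (-0.0049 without another library) for Trim25, -0.22 to 0.10 (0.05 without another library) for Stat2, -0.16 to 0.037 for Parp14, -0.20 to 0.022 (0.012 without another library) for Gbp2 and -0.63 to 0.078 for Igtp. The causes of these changes were not tested. Fragment counts were not used here, so no counting interval can be given, and with 2 libraries a group the spread of a single gene is poorly known.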

Other observations

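Among the further type I response genes, those with an unadjusted p below 0.05 in limma lay in both directions, and they are named here after their values were seen. The IFITM genes, which encode membrane proteins that block viral entry, had higher values in both RVC libraries than in both fresh-frozen libraries, Ifitm2 included. Ifitm3 was at 37.4 and 47.1 FPKM in RVC and 31.4 and 27.2 FPKM in fresh frozen, with a log2 difference of 0.52 (SE 0.14) and an adjusted p of 0.150. Ifitm1 was at 6.60 and 7.38 FPKM in RVC and 4.84 and 4.30 FPKM in fresh frozen, with a log2 difference of 0.53 (SE 0.13) and an adjusted p of 0.136. Uba7, which encodes the enzyme that activates ISG15 for attachment, was at 14.2 and 12.2 FPKM in RVC and 9.48 and 9.58 FPKM in fresh frozen, the opposite direction to Isg15 itself, with an adjusted p of 0.162.

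On the lower side were Ddx60, a helicase, at 12.5 and 8.90 FPKM in RVC and 14.4 and 21.5 FPKM in fresh frozen, and Eif2ak2, the RNA-activated kinase PKR, at 9.90 and 12.1 FPKM in RVC and 13.7 and 15.1 FPKM in fresh frozen. Their adjusted p was 0.191 and 0.232. In Ddx60, as in Oas2, Oas3 and Oasl2, RVC library 2 was lowest and fresh-frozen library 2 highest. Zbp1, Xaf1, Ifi27l2b, Phf11d and Ifit1bl2 had this order as well, so it was not particular to those genes. Its share over all genes was not counted.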
